A study of Mus musculus with 3 samples.

Results

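The hypoxia-inducible factor (HIF) genes and a set of their well-known targets were followed in iBATs through 2 h of isoproterenol (ISO). The set held 10 genes, named Hif1a, Epas1, Egln1, Egln3, Ankrd37, Ak4, Adm, Vegfa, Bnip3 and Slc2a1, out of 18194 genes with a probe set of a single symbol. A probe set is the group of short probes that reads a transcript on the array, and the members were every probe set annotated with exactly one of these symbols, 24 in all. The genes were chosen by their signals on these same 3 arrays, for the late rises of Egln3, Ankrd37 and Ak4 beside the fall of Adm, so what follows is a description and no test was made.

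The 3 samples were iBATs on day 8 of differentiation, taken at 0, 1 and 2 h of ISO, a pan-agonist of β-adrenergic receptors used at 1 μM, with 1 array for each time. iBATs are a single line of immortalized brown preadipocytes, made from the stromal vascular fraction of interscapular brown fat of young C57BL/6 mice with SV40 large T antigen. All 3 samples had been differentiated with insulin and indomethacin and then kept in medium with insulin. The oxygen level of the cultures is not given in the sources used here, and no vehicle array at 1 or 2 h is among the 3. Time in ISO and differences between single cultures or arrays therefore cannot be told apart.

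HIFs are pairs of an oxygen-sensitive α subunit, HIF1A or EPAS1 (HIF2A), with the constant partner ARNT. When oxygen is plentiful, prolyl hydroxylases of the EGLN family mark the α subunits, and the VHL ubiquitin ligase then has them destroyed, so the main control is of the protein and not of its mRNA. When the α subunits persist, the pair binds a short DNA word and turns on genes for angiogenesis, glucose uptake, glycolysis, mitophagy and, as feedback, for EGLN3 and EGLN1. In adipose tissue these factors are known for their part in blood vessel growth and in the response to low oxygen. Neither HIF protein nor oxygen was measured on the arrays.

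The signals are MAS5 values, a linear intensity for each probe set, and the 3 arrays had the same mean of 100 after the highest and lowest 2% were removed. Only probe sets reaching 100 on any array were read, which kept 17 of the 24 member probe sets, all 10 genes and 6896 genes in all. Where several were kept, the brightest by its mean over the 3 arrays was read for the gene. Calls of higher and lower were made at 1.74-fold, which is 0.8 on the log2 scale and is a size, not a test. A single array per time gives neither a replicate error nor a p-value. As a yardstick, the spread of log2 ratios over all genes, taken as the median absolute deviation scaled to a standard deviation and holding real change as well as noise, was 0.16 at 1 h and 0.24 at 2 h. It ran from 0.37 and 0.43 in the dimmest of 20 bins of mean signal to 0.09 and 0.12 in the brightest.

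The cells carried the label's markers. Of 7 brown adipocyte markers with a probe set, all 7 were read, among them Fabp4 (a fatty acid-binding protein) with signals of 7490.0, 7871.8 and 7095.6 at 0, 1 and 2 h, and Prdm16 (a regulator of brown fat identity), which was the dimmest with at most 107.5. The summed signal of the 7 markers over the 3 arrays in order of time was 18668.6, 21830.6 and 20985.1. This sum holds the rise of Ucp1, the only one of them called, which was higher at 1 h and at 2 h. Its signals were 1485.7, 3673.2 and 4166.1, so the sum does not measure the share of brown adipocytes. Of 6 preadipocyte and fibroblast markers 4 were read, and the sum over the 6 was 5144.5, 5570.8 and 5029.2. None of 6 endothelial markers exceeded 9.3 on any array, with sums of 27.1, 15.8 and 20.1, and none of 6 macrophage and leukocyte markers exceeded 93.2, with sums of 128.8, 123.6 and 203.1. The part of undifferentiated cells in the values below was not tested, and in a culture read in bulk fewer cells of a type and less RNA per cell cannot be told apart.

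At 1 h of ISO, 1 of the 10 genes was past the threshold, the vasodilator peptide gene Adm, which was lower. At 2 h, 4 were higher (Egln3, Ankrd37, Ak4 and Slc2a1) and Adm was still lower. Over all 6896 genes, 1.58% were called higher and 0.218% lower at 1 h, and 2.73% were called higher and 0.812% lower at 2 h. From the first to the second hour Egln3, Ankrd37 and Ak4 were called higher and none lower, where 0.667% of all genes were called higher and 0.319% lower. Of these 3 late steps, those of Egln3 (0.78) and Ak4 (0.75) missed the threshold with 32 added to each signal, and that of Egln3 (0.77) also with each array scaled to the same median. That of Ankrd37 (0.12) missed it once every signal under 100 was raised to 100. Since these genes were picked on the same values, nothing is read from the member counts against these shares.

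**Figure D1:**
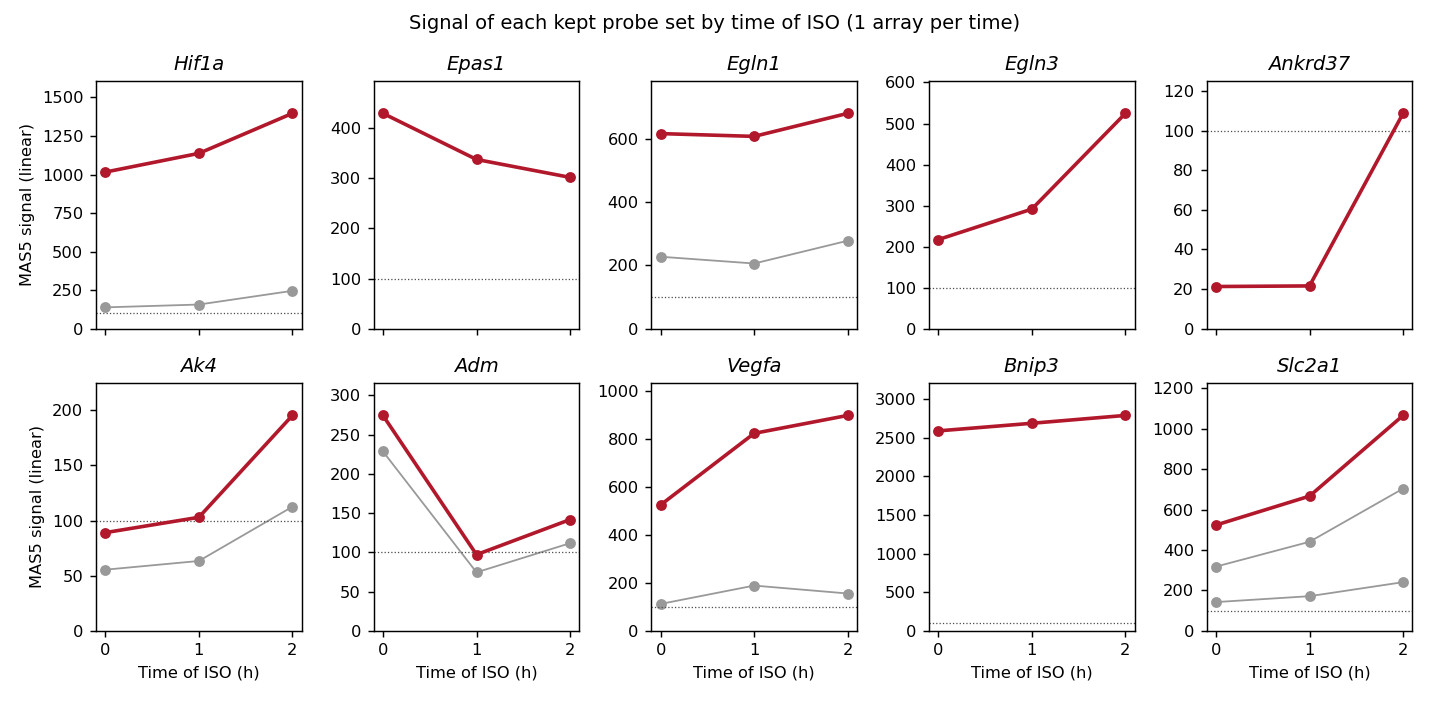
MAS5 signal (vertical axis, linear, starting at 0) against time of ISO in h (horizontal axis) for the 17 kept probe sets of the 10 genes, with 1 array per time and no error bars. Red is the brightest probe set of each gene, grey the others, and the dotted line is a signal of 100. Ankrd37 crosses it only at 2 h, with 108.7, and Adm is lowest at 1 h.

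The promoters of the 5 called genes are shown because HIF acts through a short core word, ACGTG or GCGTG, that can be looked for in them. The 250 bases before the RefSeq start are given 5′ to 3′ on the gene's strand, from the GRCm38.p6 table, in lower case. Capitals mark the HIF core on either strand (its reverse complement reads CACGT or CACGC) and, in Egln3, the half-site TGACG of the cyclic AMP response element. For Ak4, which has 4 start windows, the first listed is printed.
Egln3, chr12:54203875-54204124, minus strand: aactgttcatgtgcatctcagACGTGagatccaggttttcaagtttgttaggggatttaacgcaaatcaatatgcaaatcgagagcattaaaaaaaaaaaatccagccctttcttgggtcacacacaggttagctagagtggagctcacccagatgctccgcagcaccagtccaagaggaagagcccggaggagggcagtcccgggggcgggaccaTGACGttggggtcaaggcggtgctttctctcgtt
Ankrd37, chr8:45999851-46000100, minus strand: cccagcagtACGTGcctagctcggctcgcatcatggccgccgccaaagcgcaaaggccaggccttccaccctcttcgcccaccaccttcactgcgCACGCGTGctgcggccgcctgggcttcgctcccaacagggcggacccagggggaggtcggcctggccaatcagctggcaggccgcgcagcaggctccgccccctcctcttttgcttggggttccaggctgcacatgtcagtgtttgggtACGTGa
Ak4, chr4:101419039-101419288, plus strand: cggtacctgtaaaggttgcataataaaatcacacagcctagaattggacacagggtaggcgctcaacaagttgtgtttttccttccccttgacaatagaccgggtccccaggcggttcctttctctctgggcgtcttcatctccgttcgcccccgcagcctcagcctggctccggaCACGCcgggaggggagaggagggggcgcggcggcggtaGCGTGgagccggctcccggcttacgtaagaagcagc
Slc2a1, chr4:119108495-119108744, plus strand: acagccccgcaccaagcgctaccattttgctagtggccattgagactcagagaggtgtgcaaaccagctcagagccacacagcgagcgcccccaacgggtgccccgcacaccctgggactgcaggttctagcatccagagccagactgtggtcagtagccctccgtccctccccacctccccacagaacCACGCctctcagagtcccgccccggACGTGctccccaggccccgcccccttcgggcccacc
Adm, chr7:110627407-110627656, plus strand: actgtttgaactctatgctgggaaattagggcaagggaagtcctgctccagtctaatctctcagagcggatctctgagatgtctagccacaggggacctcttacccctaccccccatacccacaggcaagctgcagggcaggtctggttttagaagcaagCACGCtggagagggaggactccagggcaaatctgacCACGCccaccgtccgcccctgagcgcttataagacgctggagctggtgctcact

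In these stretches Egln3 holds 1 HIF core, 229 bases before the start, and the TGACG half-site 34 bases before it. Ankrd37 holds 4 cores, of which 2 overlap on opposite strands, and its nearest begins 6 bases before the start. Ak4 and Slc2a1 each hold 2. Adm, the gene that was lower, also holds 2, both of the form GCGTG and on the opposite strand. The 3 other Ak4 windows hold 2 each in their 250 bases. In windows 2 and 3 these are the same cores as in the first, and in window 4 they overlap on opposite strands.

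Of the 10 genes 9 matched the promoter table, all but Epas1, with 13 windows of 300 bases (250 before and 50 after the start). A core was present in 12 of these windows and in 43.8% of all 32851 windows of that length. The 12 were not all separate promoters, since Ak4 windows 1, 2 and 3 overlap and share the same 2 cores. Of the 2 Vegfa windows, the one at chr17:46032378-46032627 on the minus strand held no core. The one with a core, chr17:46025164-46025413, lay downstream of it, away from the first start. Its matches, which enter the counts given here, therefore show no core or TGACG before the first start of Vegfa. ACGTG alone was present in 8 of the 13 and in 19.6% of all, and TGACG in 2 (Egln3 and 1 of the 2 Vegfa windows) and in 20.8% of all. The full element TGACGTCA was in none of the 13 and in 1.79% of all. The member windows had 54.7% to 86.0% G and C, against a median of 52.7% over all windows. Bnip3 held 5 cores in the 250 bases before its start, of which 2 overlap on opposite strands, and Egln1 held 2. Both genes were among those that did not pass the threshold, so the word was present in promoters of genes with either outcome. A match describes letters only and shows no binding.

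Neither factor gene passed the threshold on the probe set read. Hif1a, which encodes the α subunit present in most cells, had signals of 1015.7, 1137.1 and 1396.7 at 0, 1 and 2 h. Each array was above the one before it, but neither log2 ratio to 0 h, 0.16 after 1 h and 0.46 after 2 h, reached the threshold. A dimmer probe set of Hif1a read 138.5, 156.8 and 245.8, and its 2 h log2 ratio of 0.83 was just past the threshold. The call for Hif1a at 2 h therefore rested on which probe set was read.

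Epas1, which encodes the α subunit HIF2A, had signals of 429.2, 337.3 and 301.6. It ran the other way to Hif1a, with log2 ratios of -0.35 at 1 h and -0.51 at 2 h, neither past the threshold. Genes of like signal had a spread of 0.14 at 1 h and 0.22 at 2 h, so both gaps to 0 h were larger than that yardstick. The other probe set of Epas1 stayed far below the filter.

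Of the partner subunits and the α paralogue, listed as 3 further genes, only Arnt was read, with signals of 258.3, 234.9 and 313.7. Hif3a and Arnt2 stayed at or below 34.9 and 50.5.

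The hydroxylase genes split. Egln3 (PHD3), a HIF-induced prolyl hydroxylase, had signals of 217.2, 291.5 and 524.8 at 0, 1 and 2 h. It was 1.34-fold of 0 h at 1 h and 2.42-fold at 2 h, with most of the step in the second hour, a log2 ratio of 0.85 to 1 h. Its other probe set lay below the filter, with at most 36.7 before 2 h and 62.8 there, and had the same order in time. At 2 h Egln3 was the 90th highest of the 6896 log2 ratios.

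Egln1 (PHD2), the main hydroxylase of HIF1A in most cells, had signals of 615.5, 606.7 and 679.4. Its log2 ratios of -0.02 at 1 h and 0.14 at 2 h were within the spread of genes of like signal (0.13 and 0.19), and the 1 h value turned positive (0.08) with each array scaled to the same median. The second probe set gave 227.1, 205.7 and 277.6. Both of them were lowest at 1 h and highest at 2 h, and neither passed the threshold.

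Of 10 further genes of hydroxylation and degradation 8 were read, and none was called at either time. Their median log2 ratio, 0.01 after 1 h and 0.05 after 2 h, compares with -0.02 and -0.07 over all genes. Egln2 (PHD1), the third EGLN paralogue, had signals of 214.0, 189.6 and 164.7, and Vhl, the substrate receptor of the ligase, had 151.3, 164.9 and 179.6. The range at 2 h ran from -0.38 for Egln2 to 0.61 for Siah2, a ubiquitin ligase that targets EGLN proteins. So of the EGLN genes the threshold was passed by Egln3 alone on the probe sets read.

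Of 4 coactivators and inhibitors 3 were read. Cited2, which competes with HIF for its coactivators and is itself a HIF target, had signals of 584.7, 274.6 and 370.4 and was called lower at 1 h (log2 ratio -1.09) but not at 2 h (-0.66). Ep300 and Crebbp, those coactivators, were at -0.50 and -0.08 at 2 h. Like Adm, Cited2 was lowest at 1 h and partly back at 2 h.

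**Figure D2:**
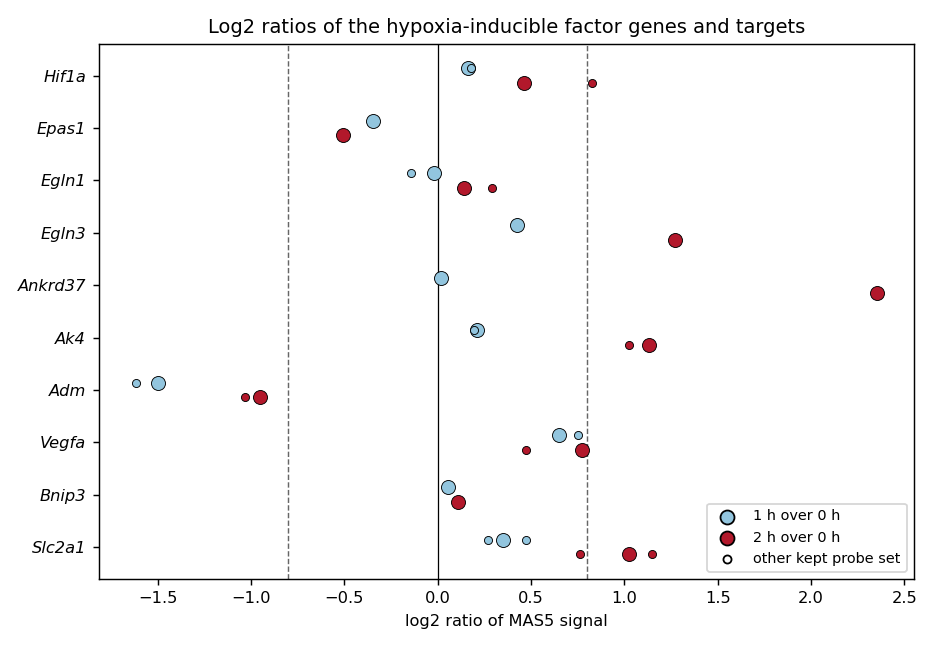
Log2 ratio of MAS5 signal to 0 h (horizontal axis) at 1 h (blue) and 2 h (red) for the kept probe sets of each gene (rows), 1 array per time. Large points are the probe set read for the gene, small points the others, and dashed lines mark 0.8 in either direction. At 2 h the red points of Egln3, Ankrd37 and Ak4 all lie to the right of the dashed line, those of Adm all to the left, and those of Hif1a and Slc2a1 fall on both sides.

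Among the targets, Ankrd37, an ankyrin repeat protein gene known as a direct HIF target, had signals of 21.3, 21.6 and 108.7. The first 2 arrays were level and the third stood 5.10-fold above 0 h. The log2 ratio for 2 h over 1 h, 2.33, was the second highest of the 6896. Ankrd37 has a single probe set, it was dim at 0 and 1 h, and it reached 100 only at 2 h, so it was read only because it was high there. Raising every signal under 100 to 100 brought the 2 h log2 ratio down to 0.12, which ends the call.

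Ak4, an adenylate kinase of the mitochondrial matrix, had signals of 89.0, 102.9 and 195.3 on the probe set read. The array at 2 h stood apart from the others, at 2.19-fold of 0 h and 1.90-fold of 1 h. Another probe set gave 55.4, 63.3 and 112.5, with the same order in time, and was kept only through its signal at 2 h. The 3 remaining probe sets stayed at or below 15.4, too dim to give a direction. Its relatives Ak1 and Ak3 were read and not called, with log2 ratios of -0.10 and -0.17 at 2 h, and Ak5 stayed below 100.

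Slc2a1 (GLUT1), the glucose transporter that needs no insulin to reach the cell surface, had signals of 523.1, 666.2 and 1065.6. It was 1.27-fold of 0 h at 1 h and 2.04-fold at 2 h, and the second hour held the larger step (1.60-fold). The other kept probe sets gave 317.4, 440.3 and 703.5, and 142.0, 171.2 and 240.6. All 3 were ordered in time, and the last of them, at a log2 ratio of 0.76, fell short of the threshold at 2 h.

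Slc2a4 (GLUT4), the insulin-regulated transporter, read 493.2, 390.1 and 348.9, and its 2 h log2 ratio of -0.50 was not called. The 5 other listed transporters, Slc2a3 (GLUT3) among them, stayed below 100. On the probe sets read, the signal of Slc2a1 thus went up in time while that of Slc2a4 went down.

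Vegfa, the principal angiogenic growth factor, had signals of 525.5, 824.5 and 899.4. Its step lay in the first hour (1.57-fold), unlike those of Egln3, Ankrd37, Ak4 and Slc2a1, and at 2 h it was 1.71-fold of 0 h, just short of the threshold. A dimmer probe set gave 112.1, 188.8 and 155.7 and was highest at 1 h, so the probe sets did not agree on the course after 1 h. Of the other VEGF family and receptor genes, 4 of 8 were read. Vegfd, with signals of 136.4, 123.5 and 78.1, was called lower at 2 h (log2 ratio -0.80, kept in 3 of 8 other settings), Vegfb was at -0.37, and Nrp1 and Nrp2 were at 0.23 and -0.03. The receptor genes Flt1 and Kdr, which mark endothelium, stayed at or below 11.1 and 9.3.

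Bnip3, a mitophagy receptor of the outer mitochondrial membrane, had signals of 2587.4, 2686.0 and 2787.8. The 3 arrays differed by at most 1.08-fold, and the log2 ratio at 2 h was 0.11, beside a spread of 0.12 among genes of like signal. Its relative Bnip2 was at 0.10 and Bnip1 stayed below 100.

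Adm, which encodes the peptide adrenomedullin, had signals of 274.6, 97.1 and 141.8. It was 2.83-fold lower at 1 h than at 0 h, the lowest log2 ratio of all 6896 genes, and 1.94-fold lower at 2 h. The second probe set gave 228.7, 74.5 and 111.7, so both were lowest at 1 h, both were higher again at 2 h by a log2 ratio of 0.55 and 0.58, and both remained below 0 h. The genes of its receptor and relative (Calcrl, Ramp1, Ramp2, Ramp3 and Adm2) stayed at or below 42.0. Where a signal of 100 was required on all 3 arrays, neither Adm probe set was read.

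**Figure D3:**
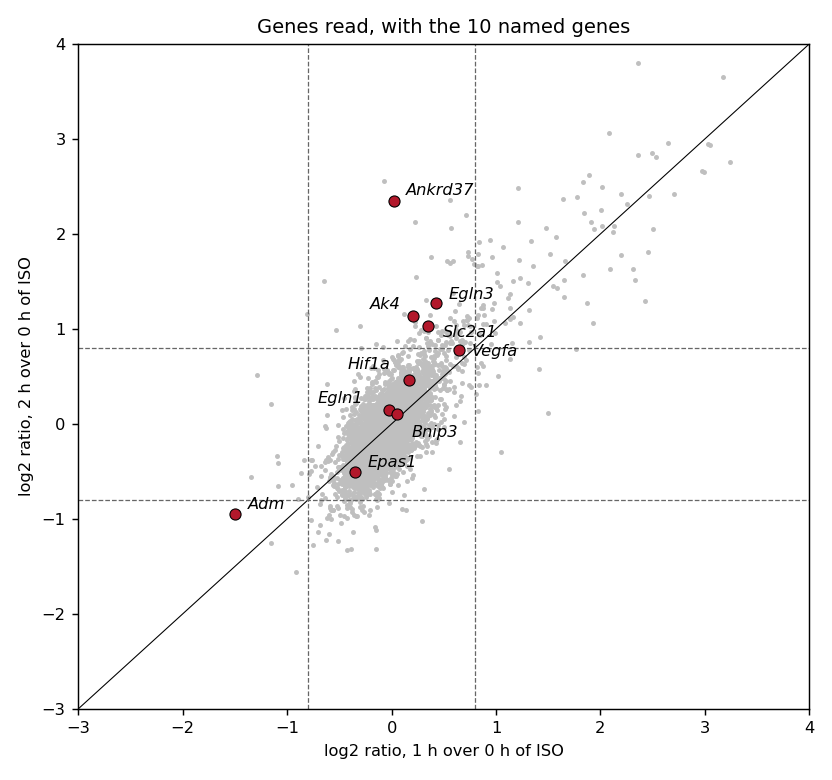
Log2 ratio at 2 h over 0 h (vertical axis) against 1 h over 0 h (horizontal axis) for 6891 of the 6896 genes read (grey) and the 10 named genes (red), with 5 genes outside the axes. Both ratios share the 0 h array, dashed lines mark 0.8 in either direction, and for points above the diagonal the 2 h array exceeded the 1 h array. Ankrd37 lies at 0.02 and 2.35, and Adm at -1.50 and -0.95.

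The courses of the 4 genes that led the choice were set against all genes read, by the distance between points in the plane of the 1 h and 2 h log2 ratios, which rests on 3 arrays. Nearest to Egln3 were Sema3g (distance 0.04), St3gal1 (0.10) and Cry1 (0.13). Nearest to Ankrd37 were Socs3 (0.22), Gli2 (0.31) and Cebpd (0.54). St3gal1, Cry1 and Gli2 had signals under 100 at 0 and 1 h and, like Ankrd37, were read only through the array at 2 h. Nearest to Ak4 were Timp1 (0.07), Marchf3 (0.09) and Acsl4 (0.11). Adm had no close neighbour, with Lrrc8d at 0.42, G0s2 at 0.46 and Cited2 at 0.50. It was chosen for its fall and had the lowest 1 h log2 ratio of all genes read. The distances use that same ratio, so nothing further is read from them.

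The wider set of HIF targets was read from lists made for this account. Of 33 further targets, which leave out the glycolytic enzymes listed below but include the regulators Pfkfb3 and Pfkfb4, 31 had a probe set and 24 were read. At 1 h 2 were called higher and none lower, with a median log2 ratio of 0.15. At 2 h 7 were called higher and none lower, with a median of 0.37. Over all genes the medians were -0.02 and -0.07, beside the shares called higher given above. The lists were made with earlier results of these arrays known, so nothing particular to the list is read from this.

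The 7 were not alike in time. Ddit4, an inhibitor of mTOR signalling, had signals of 193.1, 1581.8 and 1485.0, and Bhlhe40, a repressor of the clock, had 324.2, 1547.3 and 1609.7. Both were called at 1 h and level after it. Hmox1, the haem-degrading enzyme, had 152.5, 232.3 and 347.1, and Pfkfb3, a kinase that speeds glycolysis, had 185.6, 313.2 and 380.1. Both passed the threshold at 2 h only, with log2 ratios of 1.19 and 1.03. Pfkfb3 just missed it at 1 h, with a log2 ratio of 0.75, and was past it in 1 of 10 other settings. Its larger step lay in the first hour, with a log2 ratio of 0.28 for 2 h over 1 h. Ccng2, Kdm3a and Wsb1 also passed at 2 h only. Wsb1 did so narrowly, with a log2 ratio of 0.83, and was past the threshold in 8 of 9 other settings. Kdm3a, which encodes the histone demethylase JMJD1A that the study is about and is itself a HIF target, had signals of 421.6, 528.7 and 788.3.

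The 17 that were not called included P4ha1, a collagen prolyl hydroxylase (log2 ratio 0.62 at 2 h), Mxi1, a MYC antagonist (0.72), Ndrg1 (0.45), Pdk1, a pyruvate dehydrogenase kinase (-0.08), and Fam162a (-0.11). Car9, often used as a marker of hypoxia, had signals of 104.6, 87.2 and 108.7 and ended within 0.06 of 0 h on the log2 scale. These signals lay close to the filter of 100, and under it at 1 h, so little can be read from its course. The 7 below 100 on all arrays were Kdm4b, Car12, Edn1, Stc2, Cox4i2, Rora and Pfkfb4. Well-known targets thus stood both past the threshold and at the level of 0 h.

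Of 15 glycolytic targets 13 had a probe set and 12 were read. Hk2, the inducible hexokinase, had signals of 552.9, 923.0 and 1201.7 and was called higher at 2 h (log2 ratio 1.12), and none was lower. The other 11 had log2 ratios between -0.24 and 0.27 at 2 h. Pgk1, phosphoglycerate kinase, had signals of 4211.3, 4496.1 and 4189.9, and Ldha, lactate dehydrogenase A, had 3680.7, 4148.8 and 3915.8. As a list they had a median log2 ratio of 0.09 after 1 h and of 0.03 after 2 h, beside -0.02 and -0.07 over all genes. Of all genes 2.73% were called higher and 0.812% lower at 2 h.

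**Figure D4:**
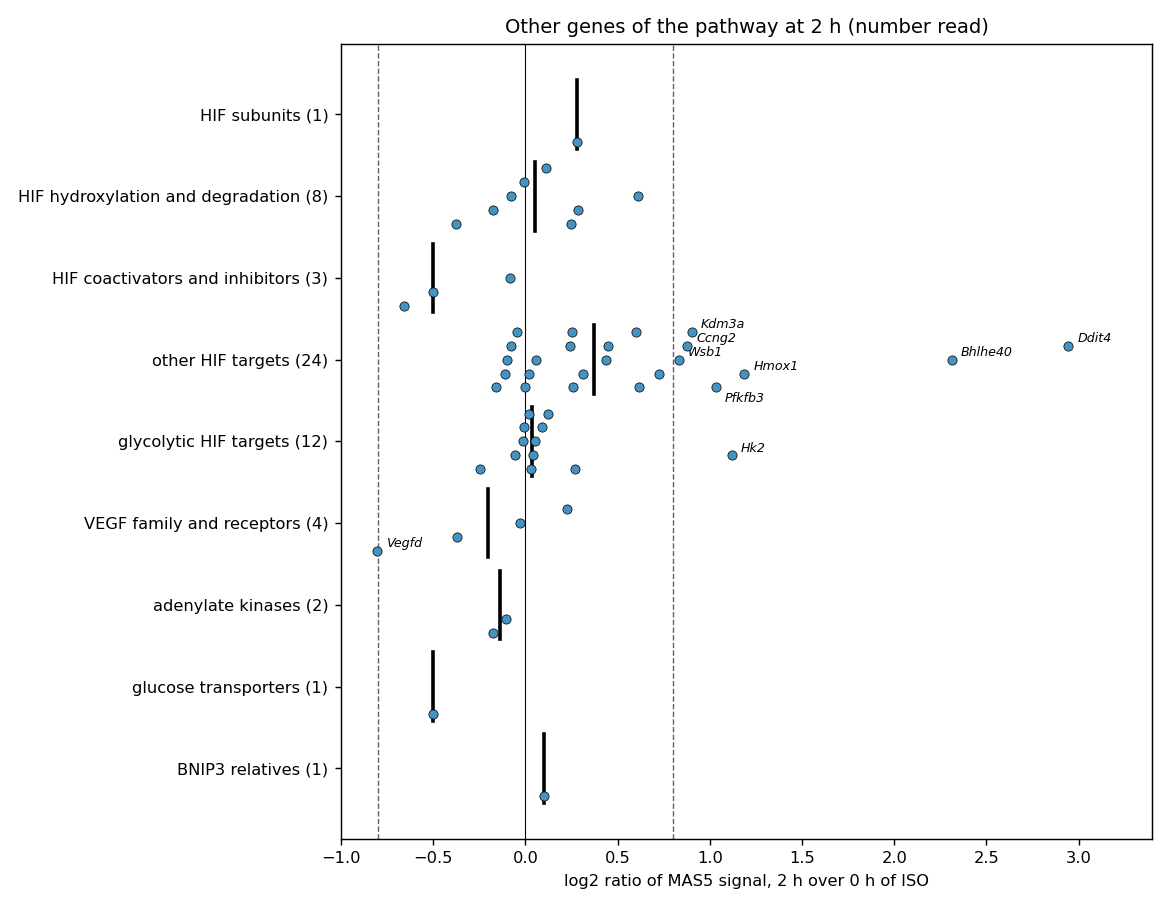
Log2 ratio of MAS5 signal for 2 h over 0 h (horizontal axis) for the genes read from 9 lists of the pathway (rows, number read in brackets), 1 point per gene and 1 array per time. Black bars are list medians, dashed lines mark 0.8 in either direction, vertical position within a row has no meaning, and genes past a line are named. The median is 0.37 for other HIF targets and 0.03 for glycolytic ones, where Hk2 alone is past the line.

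Around the filter, the member probe sets just inside it were those of Ankrd37 (highest signal 108.7) and the second of Ak4 (112.5). Just outside were the second of Egln3 (62.8) and the third of Hif1a (47.5). Around the threshold at 2 h, Adm (-0.95) and Slc2a1 (1.03) lay inside and Vegfa (0.78) and Epas1 (-0.51) outside.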

How the data were processed

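Total RNA of differentiated iBATs was hybridized by the authors to Affymetrix mouse expression arrays, with a single array at 0, 1 and 2 h after ISO. MAS5, named in the submitters' processing notes, gave the deposited intensity values, 1 linear signal per probe set and array, scaled to a common trimmed mean. The filter on absent calls and low signals in the methods is not applied in these values, and detection calls were not used. All 3 columns were used. The number of arrays limits the precision.

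Of 45101 probe sets, 34958 had 1 gene symbol in the archive's array annotation, 932 had several and were left out, and 9211 were unnamed here. Gene identifiers of 34754 matched a RefSeq table (GRCm38.p6), and no symbol changed. Pathway genes were matched by symbol, and by gene identifier where the symbol was not on the array.

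Log2 ratios were taken without further scaling, with a listed 0 set to 0.1, by scripts (Python 3.11.15, numpy 2.4.6, pandas 2.3.3) tested on simulated data. Figures used matplotlib 3.10.9. The members and lists were chosen with earlier results of these data known. All members were named, the called genes of each list (values for up to 4), and the 3 genes nearest in course to Egln3, Ankrd37, Ak4 and Adm. Other genes were named after their values were seen. Alternatives changed the filter, the treatment of low signals, the scaling, the probe set and the threshold.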

Additional observations from a re-analysis of the deposited data

How the results depend on the processing

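The 10 genes kept their direction in every setting where they were called and read. Where all 3 arrays had to reach 100, 7 of the genes were read, without Ankrd37, Ak4 and Adm, and the calls were 0 lower at 1 h, 2 higher and 0 lower at 2 h, and 1 higher for 2 h over 1 h. With at least 200 on 1 or more arrays, 8 were read, without Ankrd37 and Ak4, with 2 higher at 2 h and 1 higher for 2 h over 1 h. With 32 added to each signal, 1 was higher for 2 h over 1 h, where Egln3 was at 0.78 and Ak4 at 0.75. At a 2-fold threshold, 0 were lower at 2 h and 1 was higher for 2 h over 1 h, and 4 of the other HIF targets were higher at 2 h instead of 7. With signals below 100 set to 100, the call of Ankrd37 ended at 2 h over 0 h and over 1 h (0.12 in both).

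The probe set mattered for Hif1a and Slc2a1. Without probe sets whose suffix marks shared sequence, Hif1a was called at 2 h (0.83) and Slc2a1 was not (0.76). Hif1a was also called when any kept probe set could pass. Vegfa for 2 h over 1 h was at -0.08 with the median over probe sets and at -0.28 with the one of largest change. Over the alternatives Egln3 at 2 h ranged from 1.16 to 1.29, Ak4 kept its call at 2 h in 8 of 8, and Adm at 1 h ranged from -1.62 to -1.25. Scaling to the same median moved the median of all genes at 1 h by 0.10, and Egln3 for 2 h over 1 h then missed the threshold (0.77). The alternatives for the other HIF targets were chosen after seeing the data, and Vegfd kept its call at 2 h in 3 of 8. No paired analysis was possible because each time has 1 array. The cause of these changes was not tested, beyond the probe sets each filter removes. Signals under 100 limit what can be read of Ankrd37 and Ak4.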
